A study of Mus musculus with 21 samples.

Results

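The 38 protein-coding Hox genes listed for mouse were followed across tuft cells of 5 tissues and non-tuft cells of the small intestine. The genes were taken by name, as members of the 4 mouse Hox clusters, out of 43432 gene identifiers in the count files. Cluster A gave 10 genes (chr6:52162417-52260880, all on the minus strand, mouse build GRCm38), cluster B 10 genes (chr11:96194316-96368256, plus strand), cluster C 9 genes (chr15:102921103-103036852, plus strand) and cluster D 9 genes (chr2:74668310-74765142, plus strand). Each of the 38 genes had at least 1 read in the series. The filter on low counts kept 33 of them in the fit of the 18 tuft libraries and 16 in the fit of the 6 small intestine libraries.

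Hox genes encode homeodomain transcription factors that give cells of the embryo a position along the body axis. Within a cluster, genes of low paralog number are used toward the head and genes of high paralog number toward the tail, and many adult tissues keep part of the pattern that their precursors had. HOX proteins bind DNA together with PBX, MEIS and PKNOX cofactors, and the caudal factors CDX1 and CDX2, retinoic acid and the Polycomb and Trithorax chromatin proteins are known to set Hox expression in the embryo. Tuft cells are rare epithelial cells that sense lumen contents and release IL-25 and lipid mediators.

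All mice were naive C57BL6.Il25(Flare25/Flare25) animals, a strain in which a fluorescent reporter marks Il25-expressing cells, so the tuft gate rested on Il25 in every tissue. Tuft cells (DAPI-, CD45-, EPCAM+, Flare25+) came from colon (n = 4), small intestine (n = 3), gall bladder (n = 3), thymus (n = 4) and trachea (n = 4), and Flare25- cells of the same gate, called non-tuft epithelium here, came from small intestine (n = 3). Each library came from 1 male mouse of 12 weeks, except in trachea. There every library pooled 4 mice of 12 to 16 weeks, and trachea pools 3 and 4 were female. Whether any mouse gave libraries of more than 1 group was not established. Colon, small intestine and gall bladder were dissociated with EDTA, thymus with Liberase and DNase and trachea with Dispase and trypsin, so tissue and preparation cannot be told apart.

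Library totals ranged from 25739248 to 73574745 counts. Each colon library came from 13500 to 16000 sorted cells, each small intestine tuft library from 35000 to 36000, each gall bladder library from 1750 to 2700, each thymus library from 1350 to 1900 and each trachea library from 130 to 453, against 52000 to 57000 for each non-tuft library. The 8 tuft markers summed to a mean of 3063 CPM (counts scaled to library size) in colon, 11639 CPM in small intestine, 13155 CPM in gall bladder, 4365 CPM in thymus and 9059 CPM in trachea tuft cells, against 132 CPM in non-tuft epithelium. These are bulk samples, in which fewer cells of a type and less RNA per cell cannot be told apart.

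Hox RNA differed widely between tuft cells of different organs. Reads on the 38 genes came to 99024 in the 4 colon libraries, 4905 in the 3 small intestine tuft libraries, 115 in the 3 gall bladder libraries, 20003 in the 4 thymus libraries and 60879 in the 4 trachea libraries, against 1250 in the 3 non-tuft libraries. At a group mean of at least 1 CPM, scaled by edgeR's trimmed mean of M values, 20 Hox genes were present in colon, 8 in small intestine, 0 in gall bladder, 19 in thymus and 8 in trachea tuft cells, against 2 in non-tuft epithelium. Of the 32 genes that reached this level anywhere, 15 had their highest mean in colon, 10 in thymus, 5 in trachea and 2 in small intestine tuft cells. A single group reached the level for 21 of the 38 genes. Hoxa3, a gene needed for the thymus and parathyroid to form, and Hoxa7 were the pair that reached it in 5 of the 6 groups, all except gall bladder.

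**Figure D1:**
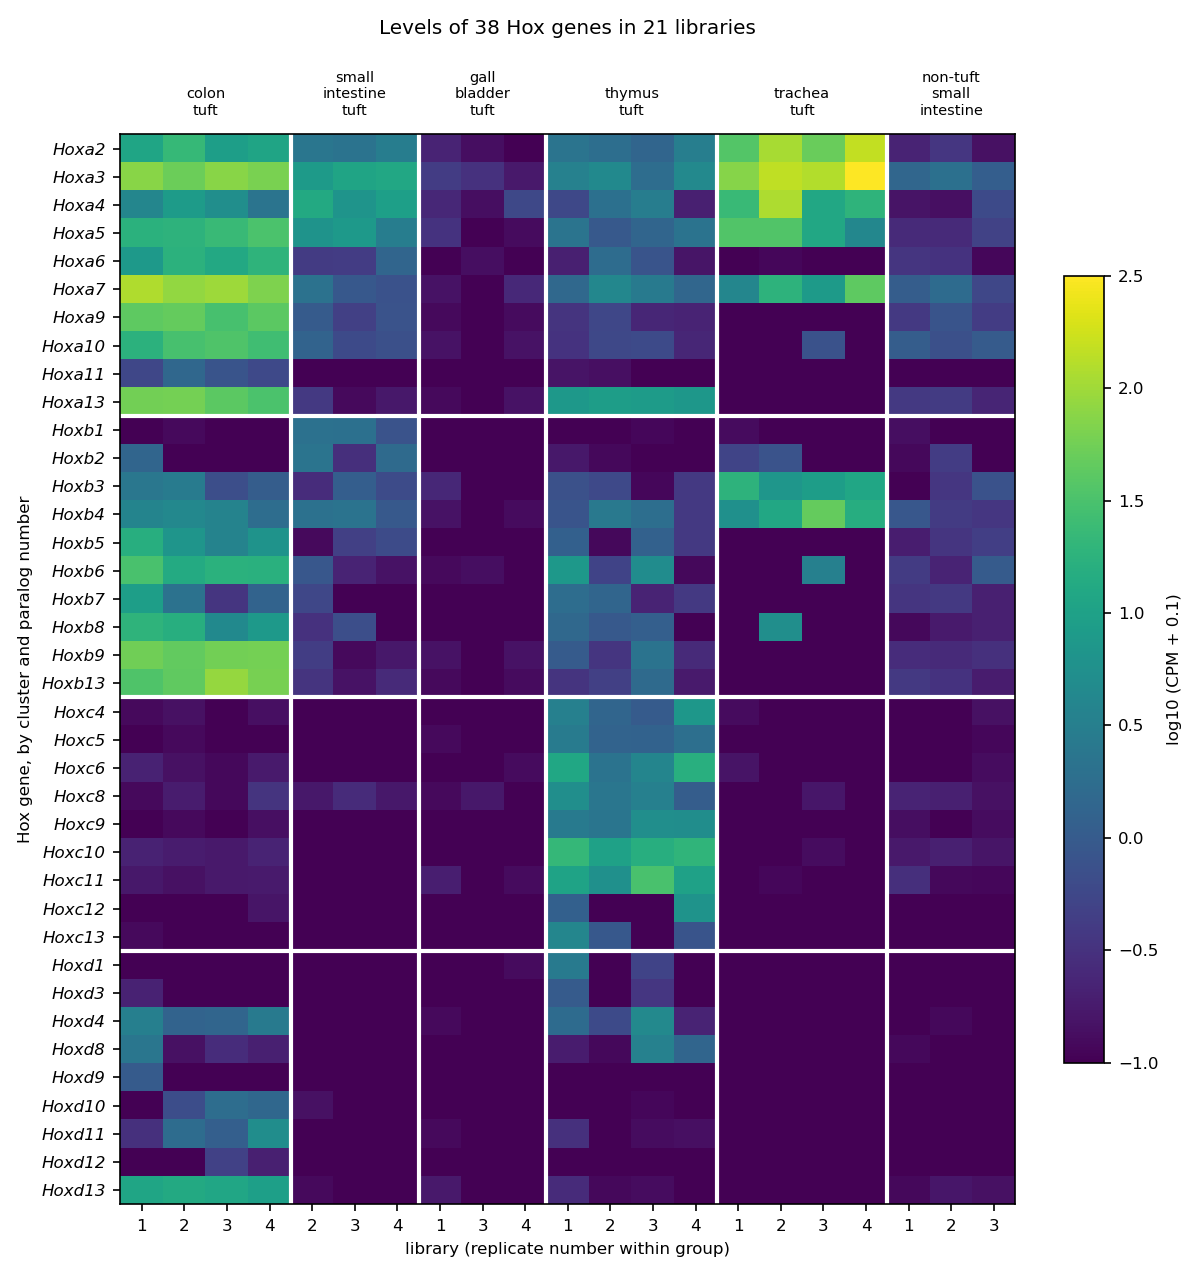
Level of each of the 38 Hox genes (rows, by cluster and paralog number) in each of the 21 libraries (columns, by group), as log10 of CPM plus 0.1. Cluster C is bright in the 4 thymus libraries, and many genes of clusters A and B, middle and high-numbered ones among them, are bright in the 4 colon libraries. Low-numbered genes of cluster A are bright in trachea, and the 3 gall bladder libraries are dark throughout.

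To compare genes with each other, levels were divided by the length of each gene's exons (CPM per kb). The summed Hox level per length was 192 ± 8.22 CPM per kb in colon, 16.0 ± 2.62 in small intestine, 0.412 ± 0.223 in gall bladder, 39.7 ± 9.87 in thymus and 135 ± 62.3 in trachea tuft cells, against 2.60 ± 0.136 CPM per kb in non-tuft epithelium (mean ± SD over libraries). Weighted by level per length, the mean paralog number was 8.22 ± 0.298 in colon, 4.18 ± 0.142 in small intestine, 8.57 ± 0.361 in thymus and 3.32 ± 0.242 in trachea tuft cells, against 6.62 ± 0.430 in non-tuft epithelium. The ranges over libraries were 7.95 to 8.65 in colon and 8.22 to 8.99 in thymus, which overlapped. Those of small intestine tuft (4.07 to 4.34) and trachea (2.98 to 3.53) overlapped with no other group. Gall bladder held too few Hox reads for such a mean.

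Paralog groups 9 to 13, the tail-end genes, made up 45.9% ± 4.97 of the summed level per length in colon and 58.8% ± 6.90 in thymus. The same groups made up 3.20% ± 1.47 in small intestine tuft cells and 0.0633% ± 0.124 in trachea, against 26.6% ± 4.47 in non-tuft epithelium. Paralog groups 1 to 4, the head-end genes, made up 84.1% ± 7.90 in trachea and 67.7% ± 5.79 in small intestine tuft cells, compared with 12.5% ± 1.87 in colon, 14.3% ± 2.96 in thymus and 28.4% ± 3.39 in non-tuft epithelium. The clusters differed too: cluster C gave 63.8% ± 13.7 of the level per length in thymus and at most 0.422% in any colon, small intestine tuft or trachea library. Cluster A gave 89.2% ± 9.71 in trachea, 85.1% ± 3.85 in small intestine tuft cells and 61.1% ± 3.88 in colon, where cluster B added 35.4% ± 3.87. Cluster D gave 3.47% ± 0.169 in colon, 3.43% ± 2.85 in thymus and 0 in each trachea library.

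**Figure D2:**
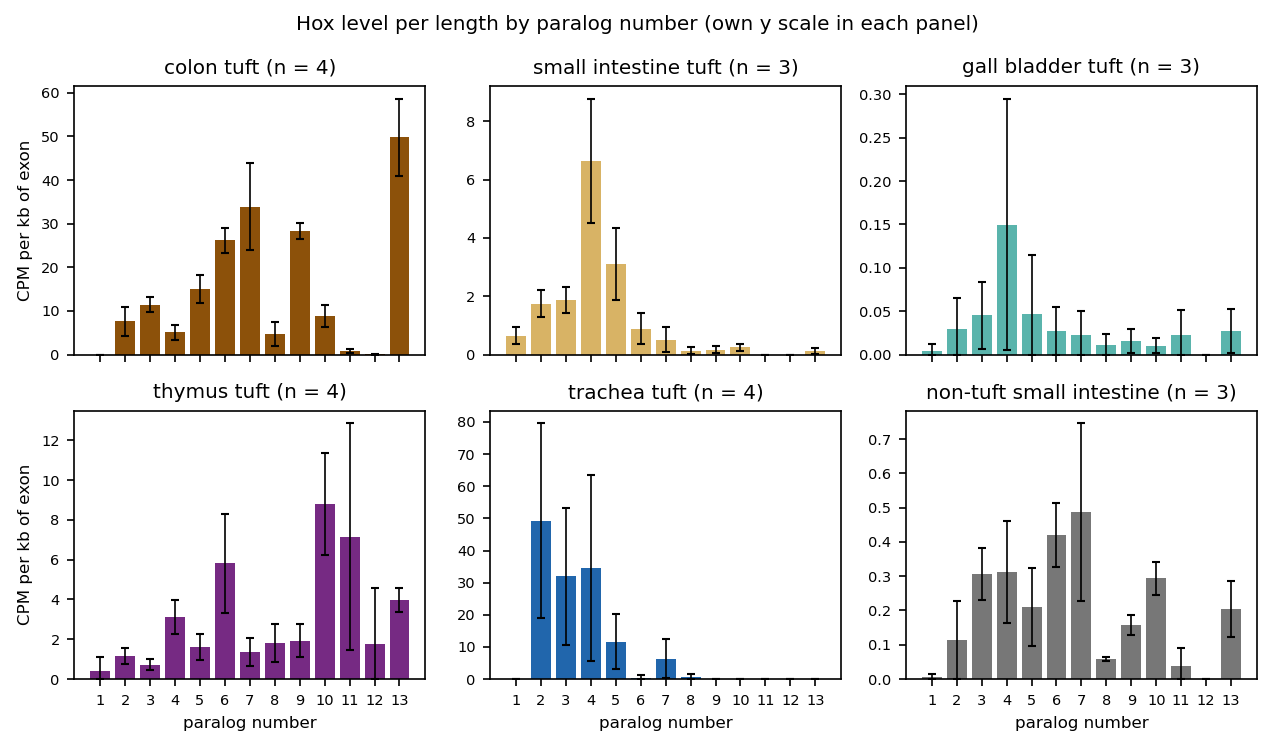
Summed level per length (CPM per kb, vertical axes differ between panels) of each paralog group, 1 to 13, in the 6 groups; bars are means over libraries and lines are SDs. Paralog group 13 is the tallest bar in colon at 49.8 CPM per kb, group 10 the tallest in thymus at 8.80 CPM per kb, group 2 the tallest in trachea at 49.3 CPM per kb and group 4 the tallest in small intestine tuft cells at 6.63 CPM per kb.

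**Figure D3:**
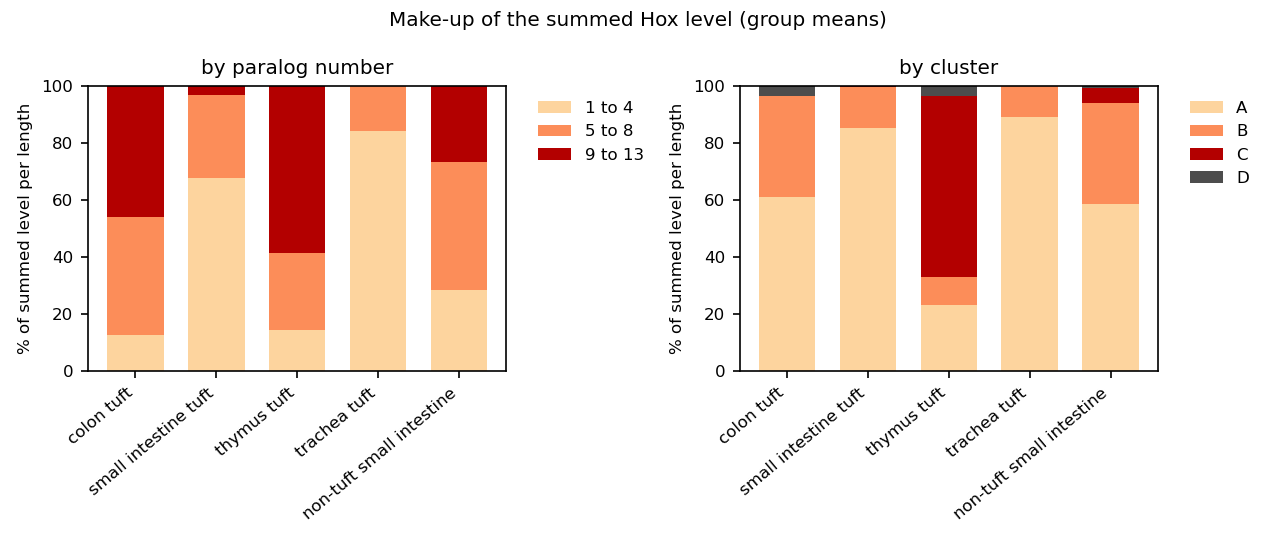
Share of the summed Hox level per length held by paralog groups 1 to 4, 5 to 8 and 9 to 13 and by clusters A to D, in percent, with gall bladder left out for its few Hox reads. Groups 9 to 13 hold 45.9% in colon and 58.8% in thymus, and cluster C holds 63.8% in thymus.

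Each tissue was then set against the mean of the other 4 tuft tissues with edgeR's quasi-likelihood test, adjusted by Benjamini-Hochberg over 19850 genes; a call needed an adjusted p below 0.05 and a log2 fold change of at least 1 either way. The mean of the other tissues was taken on the log scale, so a tissue with no reads pulls it down. A gene could therefore be called higher in a tissue whose CPM was below that of another tissue, and such genes are pointed out. The filter on low counts also kept genes with reads in 1 group alone. Such a gene was tested because it was high there, so its call is no separate support. Hoxb1, Hoxd13 and the tested cluster C genes are of this kind.

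Colon tuft cells were set apart by middle and tail-end genes of clusters A and B and by tail-end genes of cluster D. Paralog groups 5 to 8 made up 41.6% ± 4.60 of the level per length in colon. In colon 20 of the 33 tested Hox genes were called higher, where 10.7% of all genes tested were, and 0 were called lower, where 5.78% of all genes were. At an unadjusted p below 0.05 there were 22 higher and 0 lower, and DESeq2 also called 0 lower. The median log2 fold change was 5.69 over the Hox genes and -0.01 over all genes tested. In 11 of the 20 the colon libraries all lay above every other tuft library, as they did for 25.6% of the 2122 genes called higher.

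Hoxb13, known for its part in the tail end of the axis and in the prostate, had 34.2, 44.7, 89.6 and 60.4 CPM in the colon libraries, against at most 1.53 CPM in any other tuft library. Hoxa13, which acts in the hindgut, limb and genital tubercle, had 57.6, 59.5, 42.0 and 31.9 CPM in colon, against 7.08 to 8.79 CPM in thymus, 0.0244 to 0.285 CPM in small intestine, at most 0.0499 CPM in gall bladder and 0 in trachea. Hoxd13, its counterpart in cluster D, had 11.1, 13.3, 11.7 and 9.22 CPM in colon, against at most 0.171 CPM elsewhere among tuft cells. All 3 genes of paralog group 13 in clusters A, B and D thus stood above the other tissues in each colon library. The log2 fold changes were 10.24 ± 0.718 (SE, adjusted p = 3.77e-08) for Hoxb13, 8.95 ± 0.589 (adjusted p = 1.79e-08) for Hoxa13 and 9.56 ± 1.06 (adjusted p = 6.00e-06) for Hoxd13.

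Paralog group 9 was high as well. Hoxb9, used in the thorax and limb fields, had 54.4, 45.8, 57.2 and 58.7 CPM in colon, against at most 2.02 CPM in any other tuft library, and a log2 fold change of 9.80 ± 0.749 (adjusted p = 9.97e-08). Hoxa9, known for its part in blood stem cells and leukaemia, had 42.6, 47.1, 30.5 and 41.2 CPM in colon, against at most 0.899 CPM elsewhere among tuft cells, and a log2 fold change of 9.51 ± 0.592 (adjusted p = 1.07e-08). Hoxa10, needed for the uterus, averaged 27.4 ± 7.12 CPM in colon and at most 0.767 CPM in the other tuft groups, with a log2 fold change of 7.08 ± 0.903 (adjusted p = 1.10e-05).

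Genes of the middle of the clusters were high too. Hoxa7 was the highest Hox gene of colon per length, at 31.9 ± 7.83 CPM per kb, ahead of Hoxb13 at 25.9 ± 10.9 CPM per kb and Hoxb9 at 21 ± 2.25 CPM per kb; the first and second of these overlapped within their SDs. In CPM, Hoxa7 had 119, 84.5, 97.4 and 65.6 in colon, against at most 43.2 in any other tuft library, with the highest of those in trachea. Hoxa6 averaged 14.2 ± 5.00 CPM, Hoxb5 7.98 ± 5.13 CPM, Hoxb6 19.5 ± 7.66 CPM and Hoxb8, which acts in microglia and grooming behaviour, 11.5 ± 6.58 CPM in colon. Hoxb8 had 18.6, 15.5, 4.55 and 7.54 CPM in the colon libraries and overlapped with trachea, where 1 library had 5.24 CPM and the other 3 had 0. The 250 bases before the annotated start of Hoxb8 (RefSeq, GRCm38.p6, chr11:96281655-96281904, plus strand) are shown because they held both motifs searched for the caudal and HOX-PBX factors, in capitals:

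Hoxb8: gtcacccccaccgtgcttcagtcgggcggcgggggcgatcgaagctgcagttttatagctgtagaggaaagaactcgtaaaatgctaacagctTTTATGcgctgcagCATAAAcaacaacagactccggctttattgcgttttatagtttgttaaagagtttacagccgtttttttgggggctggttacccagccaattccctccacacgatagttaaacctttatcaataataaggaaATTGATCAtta

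The capitals mark 1 match to TTTATG, 1 to its reverse complement CATAAA, and 1 to TGATNNAT read on the opposite strand. TTTATG, a CDX-type motif, was found on either strand in 10.8% of 32851 promoter windows of the same length in the RefSeq table and in 5 of the 24 Hox windows. TGATNNAT, a HOX-PBX-type motif, was in 7.68% of all windows and in 4 of the 24. AGGTCA, the half-site of retinoic acid and related nuclear receptors, was in 14.0% of all windows and in 6 of the 24. The table held windows for 22 of the 38 genes. A match describes letters only. By contrast, the same stretch before Hoxa13 (chr6:52260881-52261130, minus strand) had no match to any of the 3 motifs. It is shown for its base composition, 80.0% G and C and 35 CpG pairs. The medians were 52.4% and 6 over all windows and 58.6% and 12.5 over the Hox windows:

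Hoxa13: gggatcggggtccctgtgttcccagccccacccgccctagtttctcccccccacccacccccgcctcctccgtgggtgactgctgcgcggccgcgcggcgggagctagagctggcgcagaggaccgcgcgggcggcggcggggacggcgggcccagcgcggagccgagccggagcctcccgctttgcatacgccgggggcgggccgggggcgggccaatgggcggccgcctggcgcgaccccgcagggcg

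Low-numbered genes and low-level genes were also called in colon, with more overlap. Hoxa2 (13.4 ± 5.85 CPM) and Hoxa3 (66.3 ± 11.1 CPM) were called higher in colon although trachea averaged 87.3 and 176 CPM of the same genes. Hoxa5 was called higher at 22.9 ± 7.03 CPM in colon, while trachea averaged 21.9 CPM. Hoxd4, Hoxd8, Hoxd10 and Hoxd11 averaged 2.07, 0.655, 0.903 and 2.01 CPM in colon, and Hoxd8 was higher in thymus, at 1.20 CPM. The call of Hoxd8 was lost without colon replicate 1 or thymus replicate 3 or 4, and that of Hoxd10 without colon replicate 2, 3 or 4, which left 19 to 22 Hox genes called higher. Of the genes that colon shared exon bases with, Hoxa11 (0.755 CPM) overlapped its antisense gene Hoxa11os over 35.0% of its exon length, and Hoxd4 overlapped Hoxd3 and other genes over 52.3%; the sources used here do not say whether counting used strand, so their reads cannot be told apart. Hoxa11os itself averaged 23.9 ± 5.52 CPM in colon, against at most 0.272 CPM in the other tuft groups.

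**Figure D4:**
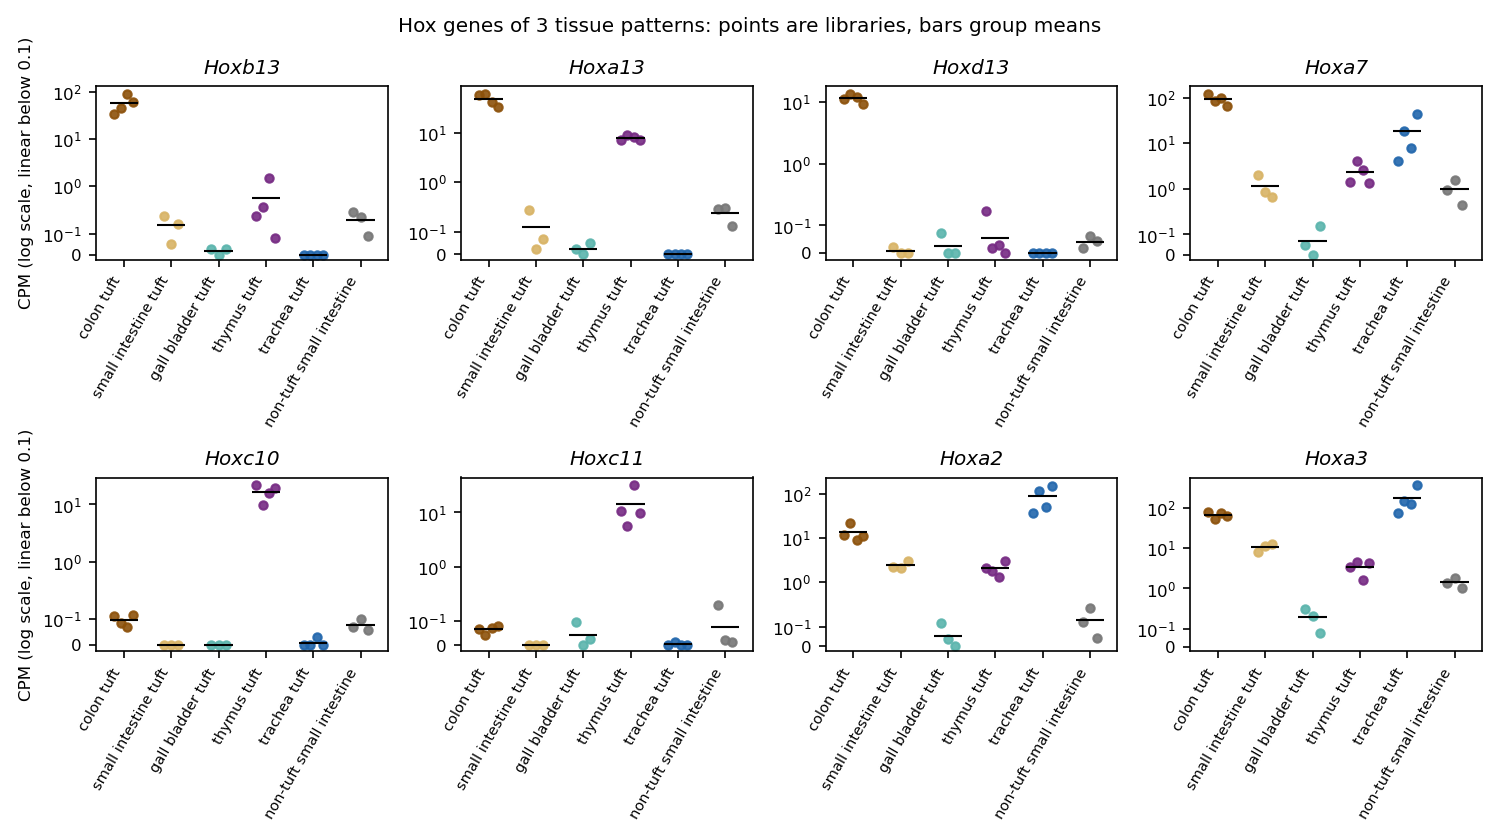
Level of selected Hox genes in each library (points; CPM on a log scale, linear below 0.1) with group means as bars, groups from left to right as colon, small intestine, gall bladder, thymus and trachea tuft cells and then non-tuft epithelium. Hoxb13 and Hoxa13 are highest in colon at 57.2 and 47.7 CPM, Hoxc10 in thymus at 16.6 CPM, Hoxa2 and Hoxa3 in trachea at 87.3 and 176 CPM, and Hoxa7 in colon at 91.7 CPM.

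Along the bowel itself, colon tuft cells had 13 of the 33 tested Hox genes called higher than small intestine tuft cells, where 4.46% of all genes were. There was 1 called lower, where 3.90% of all genes were, so the 1 lower is no more than that share. The median log2 fold change of the tested Hox genes was 4.64, against 0.12 over all genes. In all 14 the colon and small intestine libraries did not overlap, which also held for 99.2% of all genes called higher and 98.7% of those called lower. Hoxa13, Hoxb13 and Hoxb9 had log2 fold changes of 8.49 ± 1.07 (adjusted p = 5.81e-05), 8.51 ± 1.25 (adjusted p = 0.000257) and 8.52 ± 1.33 (adjusted p = 0.000457), and Hoxa7 had 6.27 ± 0.972 (adjusted p = 0.000223). Hoxd13 had 2220 reads over the colon libraries and 1 read over the small intestine tuft libraries, a ratio of pooled CPM of 1468 (95% interval 263 to 58004). Hoxd4, Hoxd11 and Hoxa11 had no read in small intestine tuft cells and were at least 87.5-fold, 87.9-fold and 32.4-fold higher in colon, against a floor of 3 reads over the group.

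The gene that ran the other way was Hoxb1, with 1 read over the 4 colon libraries and 193 over the 3 small intestine tuft libraries (log2 fold change -7.57 ± 1.76, adjusted p = 0.0101). Hoxa4 (4.89 ± 2.57 CPM in colon and 9.57 ± 3.41 CPM in small intestine tuft cells, log2 fold change -1.0 ± 0.964, adjusted p = 0.635) and Hoxa5 (22.9 ± 7.03 CPM in colon and 5.61 ± 2.41 CPM in small intestine tuft cells, log2 fold change 2.00 ± 0.905, adjusted p = 0.204) did not pass. The count called higher dropped to 7 without any 1 of small intestine tuft replicates 2, 3 and 4, when Hoxa2, Hoxa10, Hoxa11, Hoxc10, Hoxd4 and Hoxd11 were lost. Hoxa10, Hoxa11 and Hoxc10 were also lost without any 1 colon library. Hoxa3, Hoxa7, Hoxa9, Hoxa13, Hoxb9, Hoxb13 and Hoxd13 were called with any 1 library left out. Colonocyte markers differed between the same groups: 4 of 5 were called higher in colon, and the list summed to 2259 to 3383 CPM in colon tuft libraries and 237 to 281 CPM in small intestine tuft libraries. Of the tuft markers 6 of 8 were called lower in colon (median log2 fold change -1.84), and of the enterocyte markers 6 of 6 (median -7.86). Their part in the Hox differences was not tested.

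In small intestine tuft cells the Hox set was small and came mostly from paralog groups 1 to 4 of clusters A and B, with 29.1% ± 6.61 of the level per length in groups 5 to 8. The 8 genes that averaged 1 CPM or more were Hoxa2, Hoxa3, Hoxa4, Hoxa5, Hoxa7, Hoxb1, Hoxb2 and Hoxb4. Per length, Hoxa4 led at 6.00 ± 2.14 CPM per kb, followed by Hoxa5 at 2.99 ± 1.28, Hoxa3 at 1.73 ± 0.380 and Hoxa2 at 1.37 ± 0.271 CPM per kb. Against the other 4 tuft tissues, 3 of the 33 tested Hox genes were called higher, where 10.0% of all genes were, and 2 lower, where 7.45% were. Both counts are near the shares over all genes. The Hox genes had a median log2 fold change of -0.64, against -0.14 over all genes.

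Hoxb1, which gives the hindbrain segment of the facial nerve its identity, had its reads almost entirely in this organ: it had 1.93, 1.83 and 0.698 CPM in small intestine tuft libraries, against at most 0.0276 CPM in any other tuft library. Its 193 reads compared with 3 over the other 15 tuft libraries, a ratio of pooled CPM of 344 (95% interval 116 to 1682), and its log2 fold change was 7.95 ± 1.06 (adjusted p = 2.79e-05). The small intestine libraries did not overlap with the others, as in 35.0% of all 1991 genes called higher. The 250 bases before its start (RefSeq, GRCm38.p6, chr11:96365508-96365757, plus strand) are shown because this gene is known to be kept on by HOX-PBX binding in the hindbrain; the capitals mark the match to TGATNNAT:

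Hoxb1: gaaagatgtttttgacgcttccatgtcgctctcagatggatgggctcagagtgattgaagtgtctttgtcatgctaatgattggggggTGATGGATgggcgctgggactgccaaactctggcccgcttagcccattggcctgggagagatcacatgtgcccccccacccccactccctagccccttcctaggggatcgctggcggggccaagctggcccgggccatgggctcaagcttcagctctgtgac

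Hoxb2 had 2.15, 0.196 and 1.51 CPM in small intestine tuft libraries and overlapped with colon and trachea; it was not called without small intestine tuft replicate 2 or 4 or without gall bladder replicate 1, 3 or 4, and 27.3% of its exon length is shared with the antisense gene Hoxb3os. Hoxa9 was called higher (log2 fold change 2.12 ± 0.554, adjusted p = 0.0123) at 0.655 CPM, although colon averaged 40.4 CPM, because the comparison gives equal weight on the log scale to trachea at 0 reads and gall bladder at 0.0165 CPM; it was not called without small intestine tuft replicate 2. Hoxc6 and Hoxc11, called lower, had no read in small intestine tuft cells and were at least 116-fold and 220-fold lower than the pooled other tissues. Leaving out any 1 of small intestine tuft replicates 2, 3 and 4 ended both lower calls, and that of Hoxc6 was also lost without any 1 colon or thymus library.

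The small intestine was the organ with a non-tuft group, and there tuft cells had the higher Hox levels. Of the 16 Hox genes tested, 6 were called higher in tuft cells, where 13% of 16063 genes were, and 0 were called lower, where 13.9% were. At an unadjusted p below 0.05 edgeR gave 7 higher and 0 lower, and DESeq2 called 0 lower. These Hox genes had a median log2 fold change of 1.46, against -0.03 over all genes. In all 6 the tuft and non-tuft libraries did not overlap, as in 98.2% of all genes called higher.

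Hoxa4 had 13.1, 6.28 and 9.34 CPM in tuft libraries, against 0.0536, 0.0405 and 0.520 CPM in non-tuft libraries, a log2 fold change of 5.55 ± 0.800 (adjusted p = 0.000374). Hoxa5, a gene of lung and trachea development, had 6.14, 7.70 and 2.98 CPM in tuft libraries, against 0.161, 0.162 and 0.390 CPM in non-tuft libraries, a log2 fold change of 4.62 ± 0.582 (adjusted p = 0.000154). Hoxa3 had 7.87, 10.9 and 12.3 CPM in tuft libraries, against 1.34, 1.86 and 1.03 CPM in non-tuft libraries, a log2 fold change of 2.99 ± 0.346 (adjusted p = 8.94e-05). Every tuft library was above every non-tuft library for each of the 3.

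Hoxa2 averaged 2.43 ± 0.482 CPM in tuft and 0.144 ± 0.111 CPM in non-tuft libraries (log2 fold change 4.19 ± 0.739, adjusted p = 0.00129). Hoxb1 had 193 reads in tuft and 2 reads in non-tuft libraries, a ratio of pooled CPM of 130 (95% interval 35.5 to 1082). It passed the filter on low counts through the tuft libraries, so its call was largely set by the filter. Hoxb4, known to expand blood stem cells, averaged 1.62 ± 0.659 CPM in tuft and 0.450 ± 0.290 CPM in non-tuft libraries (log2 fold change 1.93 ± 0.690, adjusted p = 0.0449), and its call was lost without small intestine tuft replicate 2 (log2 fold change 1.81) or 3 (1.69) or non-tuft replicate 2 (1.71) or 3 (1.65).

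The other tested Hox genes were not called. Hoxa6 had 0.307, 0.318 and 1.28 CPM in tuft libraries, against 0.250, 0.223 and 0.0145 CPM in non-tuft libraries (log2 fold change 2.08 ± 1.06, adjusted p = 0.140). Hoxa7 averaged 1.16 ± 0.729 CPM in tuft and 1.00 ± 0.577 CPM in non-tuft libraries (log2 fold change 0.30 ± 0.692, adjusted p = 0.758). Hoxa10 averaged 0.767 CPM in tuft and 0.828 CPM in non-tuft libraries (log2 fold change -0.02 ± 0.640, adjusted p = 0.986), and Hoxa13 averaged 0.126 CPM in tuft and 0.240 CPM in non-tuft libraries (log2 fold change -0.81 ± 0.981, adjusted p = 0.542). Marker lists also differed between the groups: 8 of 8 tuft markers were called higher in tuft cells, and 5 of 5 goblet and 4 of 4 enteroendocrine markers were called lower. The goblet list summed to 1943 to 2366 CPM in tuft and 99674 to 109162 CPM in non-tuft libraries. Enterocyte markers summed to 15954 to 21483 CPM in tuft and 11236 to 12917 CPM in non-tuft libraries. The fibroblast and smooth muscle list summed to 2.43 to 3.37 CPM in tuft and 0.992 to 2.79 CPM in non-tuft libraries, and the T cell list to 19.9 to 31.5 CPM in tuft and 2.39 to 5.53 CPM in non-tuft libraries, with 4 of 4 tested T cell markers called higher in tuft cells. Their part in the Hox differences was not tested.

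**Figure D5:**
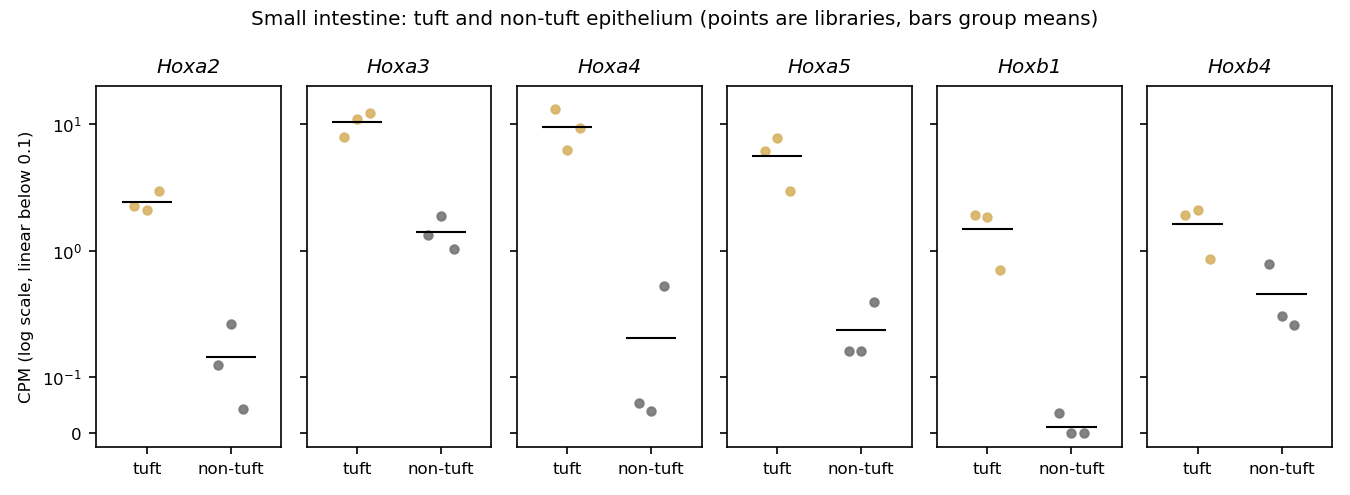
Level (CPM on a log scale, linear below 0.1) of the 6 Hox genes called higher in small intestine tuft cells (left in each panel, 3 libraries) than in non-tuft epithelium (right, 3 libraries); points are libraries and bars are group means. Each tuft point lies above each non-tuft point, with Hoxa4 means of 9.57 and 0.205 CPM and Hoxb4 means of 1.62 and 0.450 CPM.

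Gall bladder tuft cells were nearly without Hox RNA. The highest group mean among the 38 genes was 0.219 CPM for Hoxa4, whose 3 libraries had 0.147, 0.0353 and 0.474 CPM, and 16 of the 38 genes had no read in any gall bladder library. A count of 3 reads corresponded to 0.0736 to 0.106 CPM in single libraries and to 0.0275 CPM over the 3 together, so lower levels rest on a few reads or none. Against the other tuft tissues 0 Hox genes were called higher, where 12.7% of all genes were, and 10 lower, where 8.79% were; edgeR gave 0 higher and 12 lower at an unadjusted p below 0.05, and DESeq2 called 0 higher. Over the tested Hox genes the median log2 fold change was -4.17, against -0.19 over all genes.

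Hoxa3 had 0.319, 0.212 and 0.0749 CPM in gall bladder, against 1.66 to 364 CPM in the other tuft libraries (log2 fold change -6.93 ± 0.680, adjusted p = 7.85e-07). Hoxa2, which sets the identity of the second branchial arch, had 0.123, 0.0353 and 0 CPM in gall bladder, against 1.30 to 151 CPM in the other tuft libraries (log2 fold change -7.24 ± 0.900, adjusted p = 1.07e-05). For Hoxa2, Hoxa3, Hoxa5, Hoxa7 and Hoxb4 every gall bladder library was below every other tuft library. Over all 1744 genes called lower the share was 19.8%. Among the other 5 called lower, Hoxa6, Hoxa10, Hoxb3 and Hoxb8 were lost when single gall bladder libraries were left out, down to 6 called without gall bladder replicate 4. Hoxa6 and Hoxa10 were also lost without trachea replicate 2 and trachea replicate 3 in turn. Hoxb8 was also lost without any 1 colon library. The same held without small intestine tuft replicate 2 or 3, thymus replicate 1, 2 or 3, or trachea replicate 2.

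Against small intestine tuft cells, the nearest neighbour in the gut, gall bladder again had 0 Hox genes called higher, where 7.21% of all genes were, and 10 called lower, where 7.54% were. edgeR gave 1 higher and 17 lower at an unadjusted p below 0.05, and DESeq2 called 0 higher. The 10 were Hoxa2, Hoxa3, Hoxa4, Hoxa5, Hoxa6, Hoxa7, Hoxa9, Hoxb1, Hoxb4 and Hoxb5, and the groups did not overlap in any of them, as in 98.7% of all genes called lower. The log2 fold changes of Hoxa3, Hoxa2 and Hoxa5 were -5.66 ± 0.675 (adjusted p = 1.24e-05), -5.41 ± 0.882 (adjusted p = 0.000285) and -5.99 ± 1.15 (adjusted p = 0.00135). Tuft markers did not separate these groups, with 0 of 8 called either way, while 6 of 6 enterocyte markers were called lower and 3 of 5 cholangiocyte markers higher in gall bladder. The part of these markers in the Hox difference was not tested. Hoxa6 and Hoxb5 were lost without some single libraries, and 8 to 10 Hox genes were called lower with any 1 library left out.

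Thymus tuft cells were the place of cluster C. Against the other tuft tissues 15 of the 33 tested Hox genes were called higher, where 26.8% of all genes were, and 1 lower, where 5.64% were. The 1 lower is no more than the share over all genes. The median log2 fold change was 1.85, against 0.33 over all genes. All 9 cluster C genes averaged at least 1 CPM in thymus and at most 0.102 CPM in every other tuft group. The 8 that were tested, Hoxc4, Hoxc5, Hoxc6, Hoxc8, Hoxc9, Hoxc10, Hoxc11 and Hoxc13, were called higher. All 8 passed the filter on low counts through the thymus libraries, so that all of them were called higher was largely set by the filter. For 7 of these, all except Hoxc13, each thymus library was above each other tuft library. No other of the 15 did so, and over all 5316 genes called higher the share was 30.4%.

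Hoxc10, used in the lumbar region and hindlimb, had 21.4, 9.96, 15.8 and 19.3 CPM in thymus, against at most 0.120 CPM in any other tuft library (log2 fold change 10.84 ± 0.838, adjusted p = 1.01e-07). Hoxc11, its neighbour in the cluster, had 10.6, 5.67, 31.4 and 9.92 CPM in thymus, against at most 0.0981 CPM elsewhere among tuft cells (log2 fold change 9.81 ± 0.850, adjusted p = 1.19e-07). Hoxc6, used in the thorax and forelimb, had 11.9, 2.05, 3.85 and 15.8 CPM in thymus, against at most 0.114 CPM elsewhere among tuft cells (log2 fold change 9.30 ± 1.02, adjusted p = 1.81e-06). Replicate 2 was the lowest thymus library for all 3. Hoxc4, Hoxc5, Hoxc8 and Hoxc9 averaged 1.74 to 3.78 CPM in thymus.

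Single libraries mattered at the tail end of the cluster. Hoxc12 had 1.10, 0, 0 and 6.10 CPM in thymus and did not pass the filter on low counts. Hoxc13, known for its part in hair and nails, had 3.89, 0.824, 0 and 0.720 CPM and was not called without thymus replicate 1, 2 or 4. Per length, Hoxc10 at 8.69 ± 2.62 CPM per kb and Hoxc11 at 7.13 ± 5.71 CPM per kb led the thymus set and did not differ beyond their SDs, followed by Hoxc6 at 3.49 ± 2.71 and Hoxa13 at 3.17 ± 0.334 CPM per kb.

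Outside cluster C, Hoxa13 was the steadiest thymus gene, with 7.21, 8.79, 8.23 and 7.08 CPM, and was called higher (log2 fold change 5.73 ± 0.550, adjusted p = 6.22e-07) although colon had 47.7 ± 13.2 CPM. Hoxb5, Hoxb7, Hoxb9, Hoxb13, Hoxd4 and Hoxd8 were also called higher at thymus means of 0.553 to 1.65 CPM; colon exceeded thymus in mean level for each except Hoxd8, and all had no read in trachea. Without thymus replicate 3 the calls of Hoxb5 (log2 fold change 2.69), Hoxb9 (1.29), Hoxb13 (0.52) and Hoxd8 were lost, leaving 11 Hox genes called higher; Hoxd8 was also lost without thymus replicate 4 or colon replicate 1. Hoxa3 was the gene called lower, at 3.32, 4.48, 1.66 and 4.38 CPM in thymus and a log2 fold change of -1.84 ± 0.426 (adjusted p = 0.00197).

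The thymus libraries also carried markers of other cells. All 10 fibroblast and smooth muscle markers were called higher in thymus than in the other tuft tissues, summing to 183, 104, 258 and 232 CPM in thymus replicates 1 to 4, against 16.7 to 21.7 CPM in colon, 2.43 to 3.37 CPM in small intestine, 0.848 to 5.29 CPM in gall bladder and 0.858 to 107 CPM in trachea. The highest of them in thymus was Myh11, the smooth muscle myosin, at 70.5 ± 26.6 CPM, while Col1a1 had 5.72 ± 6.44 CPM and Lum 2.16 ± 1.75 CPM. Cluster C summed to 29.2, 11.8, 29.4 and 33.5 CPM per kb in the same thymus replicates, so replicate 2 was lowest in both. Endothelial markers summed to 10.5 to 35.5 CPM in thymus, with 2 of 2 tested called higher. Of 7 T cell and thymocyte markers 4 were called higher (median log2 fold change 3.79), summing to 9.29 to 36.6 CPM in thymus, against 0 to 41.1 CPM in the other tuft libraries. Myeloid markers, 3 of 5 called higher, summed to 227 to 294 CPM in thymus, against 5.77 to 68.3 CPM in colon, small intestine and gall bladder tuft libraries. All 5 thymic epithelium markers were called higher, with Foxn1, the master factor of thymic epithelium, at 175 ± 29.4 CPM and Aire, which drives expression of tissue-restricted genes in medullary epithelium, at 232 ± 45.2 CPM. The part of any of these cells in the Hox levels was not tested.

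Trachea tuft cells held mostly paralog groups 1 to 4 of clusters A and B, with 15.9% ± 7.93 of the level per length in groups 5 to 8. Against the other tuft tissues 7 of the 33 tested Hox genes were called higher, where 17.3% of all genes were, and 6 lower, where 13.7% were. Both counts are near the shares over all genes. The median log2 fold change was -2.83, against -0.01 over all genes. The 7 were Hoxa2, Hoxa3, Hoxa4, Hoxa5, Hoxa7, Hoxb3 and Hoxb4. Per length, Hoxa2 led at 49.2 ± 30.3 CPM per kb, followed by Hoxa3 at 29.3 ± 21.4, Hoxa4 at 26.8 ± 30.8 and Hoxa5 at 11.7 ± 8.55 CPM per kb; neighbours in this order did not differ beyond their SDs.

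Hoxa2 had 36.9, 112, 49.4 and 151 CPM in trachea, against at most 22.0 CPM in any other tuft library, and did not overlap with them (log2 fold change 5.92 ± 0.448, adjusted p = 1.35e-08). The 250 bases before its start (RefSeq, GRCm38.p6, chr6:52164832-52165081, minus strand) are shown since this gene led the trachea set; the capitals mark its match to TGATNNAT on the opposite strand:

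Hoxa2: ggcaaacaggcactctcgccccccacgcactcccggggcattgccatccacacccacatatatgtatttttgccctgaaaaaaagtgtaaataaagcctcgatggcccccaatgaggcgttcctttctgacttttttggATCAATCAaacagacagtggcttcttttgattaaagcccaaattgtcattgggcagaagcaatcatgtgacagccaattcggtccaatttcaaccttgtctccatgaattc

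Hoxa3 had 72.2, 144, 124 and 364 CPM in trachea, against 52.2 to 76.0 CPM in colon and at most 12.3 CPM in the other tuft libraries, and overlapped with colon (log2 fold change 5.18 ± 0.341, adjusted p = 2.64e-09). Hoxa4 had 23.4, 116, 12.3 and 19.0 CPM in trachea, against at most 13.1 CPM elsewhere among tuft cells (log2 fold change 4.42 ± 0.650, adjusted p = 3.42e-05). Replicate 2 alone held most of the Hoxa4 reads in trachea. Hoxb3 had 18.3, 6.89, 8.77 and 11.8 CPM and Hoxb4 5.63, 12.3, 46.8 and 15.0 CPM in trachea, and neither overlapped with another tuft tissue (log2 fold changes 4.90 ± 0.820, adjusted p = 0.000132, and 4.85 ± 0.631, adjusted p = 8.46e-06). Hoxa2, Hoxb3 and Hoxb4 were the 3 of the 7 higher calls without overlap, as were 13.4% of all 3436 genes called higher. Hoxb3 shares 52.9% of its exon length, and Hoxa3 27.1%, with antisense or other genes. Hoxa7 was called higher at 18.3 ± 17.6 CPM in trachea although colon had 91.7 ± 22.5 CPM, and Hoxa5 at 21.9 ± 16.0 CPM in trachea although colon had 22.9 ± 7.03 CPM.

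Tail-end genes had few or no reads in trachea. Hoxa9, Hoxa13, Hoxb9, Hoxb13 and Hoxd13 had no read in any of the 4 trachea libraries and were at least 639-fold, 886-fold, 873-fold, 944-fold and 180-fold lower than the other tuft tissues pooled, with Hoxa6 (1 read in trachea) the last of the 6 called lower. The other tissues overlapped with trachea for each of the 6, since single libraries elsewhere were also at 0. Hoxd13 was not called without small intestine tuft replicate 2 or gall bladder replicate 1, nor Hoxa6 without gall bladder replicate 3. Single trachea pools broke the pattern: Hoxa10 (0.663 CPM) and Hoxb6 (3.25 CPM) had reads in replicate 3 and 0 in the other 3 pools, and Hoxb8 (5.24 CPM) had reads in replicate 2 and 0 in the other 3. Without trachea replicate 3, Hoxa10, Hoxb6 and Hoxc8 were also called lower, making 9. These libraries came from 130 to 453 cells, the fewest of the series.

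The trachea libraries also held airway markers, of which 4 of 5 were called higher, summing to 11314 to 61628 CPM in trachea, against 784 to 1048 CPM in thymus, 44.1 to 285 CPM in gall bladder, 1.51 to 79.6 CPM in small intestine and 3.59 to 8.36 CPM in colon. Fibroblast and smooth muscle markers summed to 107, 21.3, 10.4 and 0.858 CPM in trachea replicates 1 to 4, while Hoxa2 was highest in replicate 4 and lowest in replicate 1. Myeloid markers summed to 1812 to 3766 CPM in trachea, against 5.77 to 294 CPM in the other tuft libraries, with 1 of 5 called higher and 2 lower. The part of other cells in the Hox levels was not tested.

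Set side by side, thymus and trachea, the tissues outside the gut, differed in 24 of the 33 tested Hox genes. In thymus 17 Hox genes were called higher than in trachea, where 20.7% of all genes were, and 7 lower, where 7.24% were. Between these tissues the median log2 fold change was 6.31 over the Hox genes and 0.18 over all genes. The 7 lower were the 7 trachea genes named above, with log2 fold changes of -5.61 ± 0.560 (adjusted p = 1.00e-06) for Hoxa3 and -5.36 ± 0.707 (adjusted p = 2.16e-05) for Hoxa2. Among the 17, Hoxc10 had 3787 reads in thymus and 1 in trachea, a ratio of pooled CPM of 2658 (95% interval 477 to 105005), and Hoxc11 had 3511 reads in thymus and 1 in trachea. Hoxa13 was at least 417-fold and Hoxc9 at least 204-fold higher in thymus, both with no read in trachea. The groups overlapped in Hoxc13 and Hoxa7 and in no other of the 24; of all genes called, 78.4% of the higher and 68.9% of the lower did not overlap. Hoxc13 was lost without thymus replicate 1, 2 or 4 and Hoxd8 without thymus replicate 3 or 4.

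The 6 genes not yet counted in any group at 1 CPM were low throughout. Hoxa11 and Hoxd10 were called higher in colon, at means below 1 CPM. Hoxd1, Hoxd3, Hoxd9 and Hoxd12 were not tested: Hoxd1 averaged 0.773 CPM and Hoxd3 0.290 CPM in thymus, Hoxd9 averaged 0.227 CPM and Hoxd12 0.119 CPM in colon, and most of their libraries were at 0.

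The known partners of HOX proteins were called higher most often in thymus, which also had the largest share of all genes called higher. Of the 9 cofactor genes, all tested, 6 were called higher in thymus, 3 higher and 1 lower in trachea, 3 higher and 1 lower in gall bladder, 1 higher and 2 lower in colon, and 3 lower in small intestine, each against the other tuft tissues. Over all genes the shares called higher were 26.8% in thymus, 17.3% in trachea, 12.7% in gall bladder and 10.7% in colon. Those called lower were 13.7% in trachea, 8.79% in gall bladder, 5.78% in colon and 7.45% in small intestine. So 1 of 9 lower in trachea or gall bladder and 1 of 9 higher in colon are near the background. Meis1 averaged 44.2 ± 32.0 CPM in trachea and 27.0 ± 5.34 CPM in thymus, and 0.176 CPM in colon, where it was called lower (log2 fold change -5.03, adjusted p = 0.00108). Meis2 averaged 116 ± 21.4 CPM in thymus and 84.9 ± 44.9 CPM in gall bladder. Pbx3 was called lower in trachea, at 0.0399 ± 0.0343 CPM (log2 fold change -7.66, adjusted p = 5.97e-05). In small intestine tuft cells Pbx3 was called lower than in non-tuft epithelium, with a log2 fold change of -1.68 (adjusted p = 0.00139).

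Of the caudal and ParaHox genes, Cdx1 and Cdx2, gut factors that act on Hox genes in the embryo, were called higher both in colon and in small intestine tuft cells. Cdx1 averaged 115 ± 13.6 CPM in colon, 101 ± 9.92 CPM in small intestine, 25.6 ± 5.39 CPM in gall bladder, 45.3 ± 8.11 CPM in thymus and 0.456 ± 0.299 CPM in trachea tuft cells, against 47.2 ± 2.76 CPM in non-tuft epithelium. Cdx2 averaged 80.2 ± 35.9 CPM in colon and 55.9 ± 26.8 CPM in small intestine tuft cells and at most 1.26 CPM in the other tuft groups, against 92.5 ± 50.6 CPM in non-tuft epithelium. Neither Cdx gene was called between colon and small intestine tuft cells. The part of the Cdx genes in the Hox levels was not tested. Pdx1, the duodenal and pancreatic factor, averaged 0.147 CPM in colon and 15.5 ± 2.79 CPM in small intestine tuft cells (log2 fold change -6.73, adjusted p = 0.00567).

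Noncoding genes in or beside the clusters were read against the same shares. Of 8 tested, 3 were called higher in colon, 2 higher and 2 lower in thymus, 4 higher and 2 lower in trachea, and 1 higher and 2 lower in gall bladder, so the 2 higher in thymus and the 1 higher in gall bladder are near the background. Hottip, at the Hoxa13 end of cluster A, averaged 11.2 ± 4.82 CPM in colon and 1.65 ± 1.88 CPM in thymus, and no more than 0.0412 CPM in the other tuft groups. Hotair, in cluster C, averaged 3.52 ± 2.26 CPM in thymus and at most 0.00541 CPM in the other tuft groups. Hotairm1, at the head end of cluster A, averaged 13.6 ± 6.66 CPM in trachea and 5.57 ± 1.23 CPM in small intestine tuft cells, against 0.115 ± 0.0528 CPM in non-tuft epithelium, and was called higher in small intestine tuft cells than in non-tuft epithelium (log2 fold change 5.70, adjusted p = 2.20e-05). Halr1, also beside cluster A, stood apart: it averaged 16.6 ± 7.93 CPM in gall bladder and at most 0.946 CPM in the other tuft groups (log2 fold change 6.18, adjusted p = 1.94e-05), while the coding Hox genes were near 0 there.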

How the data were processed

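The authors deposited unnormalized whole-number read counts by gene identifier, 1 file for each of 21 libraries. Per the labels' protocols, poly(A) RNA was amplified (NuGen Ovation) before Nextera XT tagging, and no molecular identifiers are mentioned, so intervals and floors cover counting error only. STAR, DESeq2 and GRCm38 are named in the submitters' processing notes; versions, annotation and use of strand are not stated there. GENCODE M21 gave symbols and exon lengths for 42548 of 43432 identifiers, and the 884 others held 0.0986% of counts.

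edgeR 4.0.16 (TMM scaling, filterByExpr, quasi-likelihood F test) in R 4.3.3 gave two-sided tests with Benjamini-Hochberg adjustment over all genes tested, 1 fit for the 18 tuft libraries and 1 for the 6 small intestine libraries; it was tested on simulated data. Levels are TMM-scaled CPM over all 21 libraries. Replicates of a group were taken as separate mice or pools, and mice shared between groups were not excluded. DESeq2 1.42.0, other scaling, no filter, all 21 libraries, a replicate block and leaving out each library were tried. Bounds use a floor of 3 counts over a group, and ratios have exact 95% intervals. Library totals were 25739248 to 73574745.

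Members and lists were chosen with earlier results of these data known. Values per library and full statistics were kept to genes that were called and averaged 5 CPM or more in a group, at most 10 per comparison by size of change; Hoxb1, Hoxb2, Hoxc12, Hoxc13 and genes given for loss of a call or for not passing fall outside this and were chosen after their values were seen. Promoters are from RefSeq (GRCm38.p6).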

Additional observations from a re-analysis of the deposited data

Results flagged for a closer look

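Of 34 groups of values checked for a sample far from the rest, 2 held one, and both were in trachea. Chance gives about 1 in 20, so 2 of 34 is near that rate. Only the groups of 4 libraries, colon, thymus and trachea, were checked. Small intestine, gall bladder and non-tuft groups were too small for the check. Hoxa4 had 115.9 CPM in trachea replicate 2, while the other 3 trachea libraries had 12.3 to 23.4 CPM. Trachea replicate 2 also had 5.24 CPM of Hoxb8, which had 0 in the other 3. The share of the summed Hox level per length in paralog groups 9 to 13 was 0.249% in trachea replicate 3 and at most 0.00387% in the other 3 trachea libraries; it came from Hoxa10 at 0.663 CPM. What set these pools apart was not tested.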

How the results depend on the processing

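Of 118 gene values rechecked, 0 reversed. Counting only runs that tested the gene, 96 were called with any 1 library left out and 94 under every alternative. Runs in which the filter on low counts dropped the gene were passed over. Calls lost in that way were not subtracted, so both counts are upper limits. DESeq2's size factors changed no call; with them the thymus median over all genes was 0.43, and with TMM it was 0.33. DESeq2 called 18 Hox genes lower in gall bladder, 13 lower in trachea and 6 lower in small intestine. With no filter, 1 was lower in small intestine. With all 21 libraries, Hoxc10 (1 gene) was lower in small intestine tuft than non-tuft cells. The replicate block gave 1 lower in small intestine, 7 lower in gall bladder, 13 higher in thymus and 9 higher in colon than in small intestine. Of 32 same-numbered pairs of tuft libraries 1 had a correlation over 0.1, against 0 of 97 other pairs, so the numbers were not read as pairs. That check cannot exclude mice shared between groups. It left out the non-tuft libraries, so it says nothing on pairs of tuft and non-tuft libraries of the small intestine. With the replicate block, no Hox call between those groups was lost or gained. With 1 library left out, small intestine had 1 to 4 higher and 0 to 2 lower, colon over small intestine 7 to 10 higher, gall bladder 6 to 11 lower, trachea 5 to 9 lower, and small intestine tuft against non-tuft 0 to 1 lower. As CPM in place of the level per length, the summed Hox level was 506 in colon, 37.8 in small intestine, 0.990 in gall bladder, 86.6 in thymus and 380 in trachea tuft cells, against 7.23 in non-tuft epithelium, and small intestine tuft cells had a mean paralog number of 4.03 and a share of 4.79% in groups 9 to 13. The causes were not tested. Depth limits genes with few reads, and 3 reads were 0.117 CPM in the shallowest trachea library.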

Other observations

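Among 16 retinoic acid pathway genes, 8 were called higher and 1 lower in thymus, 5 higher and 1 lower in trachea, 1 higher and 2 lower in small intestine, 1 higher and 2 lower in gall bladder and 0 either way in colon, each by edgeR's quasi-likelihood test against the other tuft tissues. Over all genes 26.8% were called higher and 5.64% lower in thymus, 17.3% and 13.7% in trachea, 10.0% and 7.45% in small intestine, 12.7% and 8.79% in gall bladder and 10.7% and 5.78% in colon, so the counts in colon and the higher counts in small intestine and gall bladder are below the background. Cyp26a1, a retinoic acid hydroxylase, averaged 11 ± 11.2 CPM in thymus and at most 0.0375 CPM in the other tuft groups, and Crabp1, a retinoic acid binding protein, 13 ± 10.9 CPM in thymus and at most 0.0319 CPM in the others. Aldh1a1, which makes retinoic acid, averaged 2644 ± 2028 CPM in trachea, 385 ± 19.9 CPM in small intestine and 4.91 ± 1.81 CPM in thymus, where it was called lower (log2 fold change -5.86, adjusted p = 1.10e-08).

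Of 20 Polycomb and Trithorax genes, 3 were called higher and 1 lower in gall bladder, 3 higher in trachea, 2 higher in thymus, 1 higher and 2 lower in colon and 2 lower in small intestine. These counts are near or below the same shares over all genes. Kmt2a, the Trithorax-type methyltransferase, averaged 2147 ± 542 CPM in gall bladder and 592 to 736 CPM in the other tuft groups (log2 fold change 1.69, adjusted p = 6.18e-08), and Ezh2, the Polycomb methyltransferase, averaged 1.01 ± 0.510 CPM in gall bladder and 6.46 to 36.7 CPM in the others (log2 fold change -3.94, adjusted p = 0.00182). Kmt2a was also called higher in small intestine tuft cells, at 682 ± 40.4 CPM, than in non-tuft epithelium, at 229 ± 12.0 CPM (log2 fold change 1.67, adjusted p = 4.26e-06).

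Of 12 listed genes just outside the clusters 9 were tested, and 0 to 2 were called either way in each tuft tissue against the others, counts to be read against the same shares. In small intestine tuft cells 4 of the 9 were called higher than in non-tuft epithelium and 0 lower, where 13% of all genes were called higher. Ttll6, next to the Hoxb13 end of cluster B, averaged 87.9 ± 17.9 CPM in colon and 0.243 ± 0.156 CPM in small intestine tuft cells (log2 fold change 8.45, adjusted p = 0.0105). Skap2, next to the head end of cluster A, averaged 588 ± 84.1 CPM in small intestine and 562 ± 143 CPM in gall bladder, where coding Hox genes were near 0, against 30.9 ± 1.98 CPM in non-tuft epithelium.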
